A study of Drosophila melanogaster with 4 samples.

Results

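Transcripts of 10 genes of carbohydrate digestion and sugar response were followed in adult heads of Drosophila melanogaster: tobi, an alpha-glucosidase gene; sug (sugarbabe), a zinc finger transcription factor gene; the amylase genes Amy-p, Amy-d and Amyrel; and the maltase genes Mal-A1, Mal-A2, Mal-A3, Mal-A4 and Mal-B1. These are 10 of the 16489 gene symbols counted in the series, taken by symbol, and all 10 were present in the count tables. They were chosen by their pathway and selected on the read counts of these same 4 libraries, with the difference between the groups known. That difference is therefore given as a description, with no p-value for any of the 10, and nothing is supported with it.

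Amylases cut starch and glycogen into maltose and longer glucose chains, and maltases and other alpha-glucosidases release glucose from these, mostly in the midgut. In flies the Mondo-Mlx transcription factor pair senses intracellular sugar and activates sug, and dietary glucose represses digestive amylase and maltase genes through Mondo-Mlx, sug and the activin-like ligand Dawdle. The gene tobi takes its name, target of brain insulin, from its control by the insulin-producing cells and by adipokinetic hormone, the glucagon-like hormone of flies, and it is expressed in the fat body, which also surrounds the brain in the adult head.

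The control heads carried the eye driver GMR-Gal4 alone, and the other group, GMR>yki S168A and called transgenic here, used the same driver to express a form of the growth co-activator Yorkie that lacks a site of inhibition by the kinase Warts. The driver is active mainly in the developing eye, whereas a whole head also holds brain, fat body, muscle and cuticle. Each group had 2 libraries of 30 heads, and the labels give no sex, age or diet. They do not say whether the libraries came from separate crosses. The p-values thus set the group difference against the spread between these libraries, which may be technical. In bulk heads, fewer cells of a type and less RNA per cell cannot be told apart, and neither can the effects of Yorkie, of the transgene insertion and of stock background.

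The libraries held between 15738860 and 18108814 read counts. Levels are in CPM, counts scaled to a common library size, after TMM scaling, which corrects for differences in composition, and 3 counts corresponded to 0.170 to 0.184 CPM. The yki gene itself was at 12.4 and 18.4 CPM in controls against 32.2 and 27.2 CPM in transgenic heads (log2 fold change 0.95 ± 0.23, SE, edgeR adjusted p = 0.0112; 0.69 and adjusted p = 0.138 leaving out control replicate 1). Enough counts for a test were present for 10896 genes. With edgeR's quasi-likelihood test, 27.6% of these were called at a Benjamini-Hochberg adjusted p under 0.05, 12.5% lower and 15.1% higher in transgenic heads. Over all tested genes the log2 fold change had a median of 0.01.

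Of the 10 genes, 8 had enough counts for that test, and Mal-A3 and Mal-A4 did not. Of the 8, 2 were called lower (tobi and sug) and 2 higher (Amy-p and Mal-A2), beside the 27.6% of all tested genes called. Mal-A2, with 0 reads in each control library, entered the test through its transgenic reads alone. Its direction in these counts was thus fixed by the filter. The 2 libraries of 1 group lay wholly above or below those of the other for 6 of the 8, with 4 lower and 2 higher in transgenic heads, beside 63.3% of all tested genes (31.2% lower and 32.1% higher). The median log2 fold change of the 8 was −0.56. Since these values chose the genes, these counts are no test of them, and nothing is read from them.

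**Figure D1:**
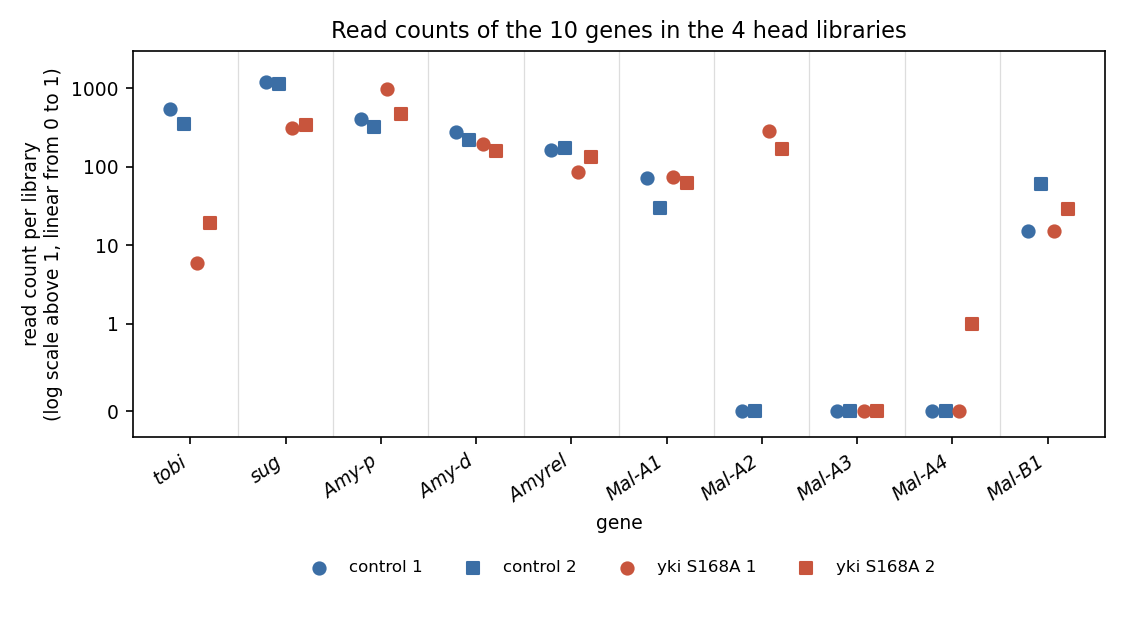
Read counts (vertical axis, logarithmic above 1) of the 10 genes in the 4 libraries, with control libraries in blue, transgenic libraries in red, circles for replicate 1 and squares for replicate 2. For tobi the controls had 545 and 346 counts and the transgenic libraries 6 and 19, whereas Mal-A2 had none in controls and 456 over the transgenic pair.

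The alpha-glucosidase gene tobi (FBgn0261575, chromosome 3R, 25344761 to 25346921, minus strand, build dm6) had 545 and 346 reads in controls against 6 and 19 reads in transgenic libraries. These corresponded to 31.1 and 21.2 CPM in controls against 0.364 and 1.08 CPM in transgenic heads, so both transgenic libraries lay far below both controls. The means were 26.2 ± 6.99 and 0.721 ± 0.505 CPM (SD, n = 2 each), and the log2 fold change was −5.15 ± 0.43 (SE, 95% interval −6.10 to −4.20). The size rested on few transgenic counts: the log2 value was −4.60 leaving out transgenic replicate 1 and −6.15 leaving out transgenic replicate 2. Of the exonic bases of tobi 3.71% lie opposite the gene rha.

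The transcription factor gene sug (FBgn0033782, chromosome 2R, 12924567 to 12930644, plus strand) had 1210 and 1117 reads in controls against 313 and 338 reads in transgenic libraries. In CPM the controls stood at 69.1 and 68.6 and the transgenic libraries at 19.0 and 19.2. This was the gene with the closest replicates of the 10, with a ratio between the libraries of a group of 1.01 in each group. The log2 fold change was −1.85 ± 0.17 (SE, 95% interval −2.21 to −1.49), a 3.6-fold lower level. The gene CG13319 shares 6.23% of its exonic bases on the same strand.

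Most listed fat body markers were lower in the same heads. Of 24 listed fat body genes, all tested, 15 fell and 1 rose by edgeR's quasi-likelihood test (12.5% of all tested genes fell and 15.1% rose), and the median log2 fold change was −0.72. Their summed level was 74038 and 83154 CPM in controls against 33202 and 22441 CPM in transgenic heads. Without the yolk protein genes Yp1, Yp2 and Yp3, which are expressed in females, the remaining 21 genes summed to 17333 and 15809 CPM in controls against 10997 and 8838 CPM in transgenic heads. The largest parts of that sum were Adh and apolpp, listed as Rfabg. Adh was at 9091 and 7853 CPM in controls against 6153 and 5266 CPM in transgenic heads and was not called (edgeR adjusted p = 0.111). Of its exonic bases 93.88% are shared with Adhr on the same strand. For apolpp the levels were 4020 and 3696 CPM in controls against 2092 and 1347 CPM in transgenic heads. No listed fat body marker was at 0. The acetyl-CoA synthetase gene AcCoAS fell by 1.06 on the log2 scale (adjusted p = 0.000587), the lipid transfer particle gene Apoltp by 1.04 (adjusted p = 0.00115) and Yp1 by 1.82 (adjusted p = 0.00148, and 0.0681 leaving out control replicate 2). The fat body protein gene Fbp1 was called the other way (log2 fold change 1.46, adjusted p = 0.0483), with 99 and 262 reads in controls against 243 and 785 reads in transgenic libraries, so its groups overlapped. That call was lost leaving out transgenic replicate 2 (log2 0.45, adjusted p = 0.492) and leaving out control replicate 1 (0.88, adjusted p = 0.185), as well as with RLE scaling (adjusted p = 0.0548) and DESeq2 (0.315). The number of fat body genes that fell was 7 leaving out control replicate 1 and 8 leaving out control replicate 2, and the number that rose was 4 leaving out transgenic replicate 1. Lsp1alpha (log2 fold change 0.56, edgeR adjusted p = 0.478), Lsp1gamma (0.87, 0.209) and Fbp2 (0.63, 0.358) were above 0 but not called. In each of them transgenic replicate 1 was the lowest library and transgenic replicate 2 the highest. The part of the fat body markers in the lower tobi and sug counts was not tested.

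Among the amylases, the proximal and distal genes Amy-p (FBgn0000079, chromosome 2R, 17118636 to 17120303, minus strand) and Amy-d (FBgn0000078, chromosome 2R, 17124764 to 17126369, plus strand) are near-identical copies that encode the starch-digesting alpha-amylase. How reads with several matches were counted is not given in the sources used here, so the division of reads between the copies is uncertain. Amy-p had 408 and 324 reads in controls against 972 and 474 reads in transgenic libraries. Amy-d had 275 and 218 reads in controls against 193 and 161 reads in transgenic libraries. The copies thus stood on opposite sides, with Amy-p above and Amy-d below control in both transgenic libraries.

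In CPM, Amy-p was at 23.3 and 19.9 in control and at 59.0 and 26.9 in transgenic heads, so a single transgenic library stood well apart. The log2 fold change of Amy-p was 0.99 ± 0.30 (SE, 95% interval 0.32 to 1.66), and it was 0.31 leaving out transgenic replicate 1 and 1.45 leaving out transgenic replicate 2. Amy-d was at 15.7 and 13.4 CPM in controls against 11.7 and 9.14 CPM in transgenic heads. Its log2 fold change was −0.48 ± 0.26 (SE, 95% interval −1.06 to 0.09). Summed to 1 value per library, a choice made after seeing the data, the pair was at 39.0 and 33.3 CPM in controls against 70.7 and 36.0 CPM in transgenic heads. The summed groups overlapped, since control replicate 1 was above transgenic replicate 2.

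The share of the pair's reads assigned to Amy-p was 59.7% (exact 95% binomial interval 56.0 to 63.4%) in control replicate 1 and 59.8% (55.5 to 63.9%) in control replicate 2. It was 83.4% (81.2 to 85.5%) in transgenic replicate 1 and 74.6% (71.1 to 78.0%) in transgenic replicate 2. The control libraries thus had the same share within counting error, and the share was higher in both transgenic libraries. The transgenic intervals did not overlap each other, so libraries of a group could differ by more than counting error. These intervals cover counting error only, so they cannot test a difference between the groups, and they assume reads assigned to the right copy.

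**Figure D2:**
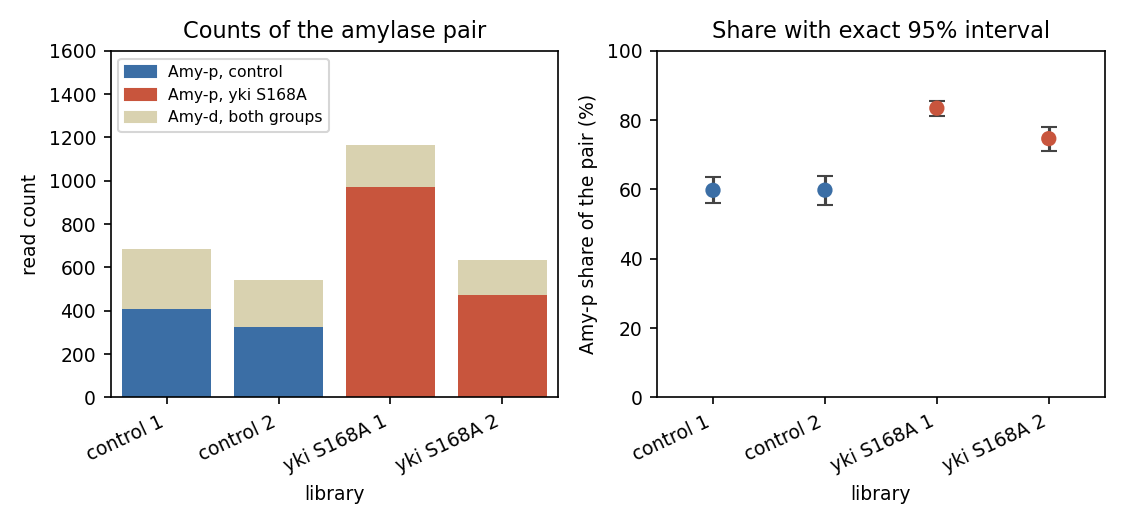
Left, read counts of Amy-p (blue in control, red in transgenic libraries) with Amy-d stacked above it in beige; right, the Amy-p share of the pair's reads in percent with exact 95% binomial intervals. The share was 59.7% and 59.8% in controls against 83.4% and 74.6% in transgenic libraries.

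The amylase-related gene Amyrel (FBgn0020506, chromosome 2R, 16651095 to 16652699, minus strand), a diverged amylase gene, had 165 and 174 reads in controls against 87 and 135 reads in transgenic libraries. Both transgenic libraries were lower than both controls. At 9.42 and 10.7 CPM against 5.28 and 7.66 CPM the log2 fold change was −0.63 ± 0.32 (SE, 95% interval −1.32 to 0.07).

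Mal-A2 (FBgn0002569, chromosome 2R, 8453627 to 8455782, plus strand), a maltase gene also known as LvpD, was seen in transgenic heads and in neither control library. Each control library held 0 reads of it, against 17.5 and 9.53 CPM in the transgenic libraries, where it had 456 reads in all, 288 of them in replicate 1. Against a floor of 3 counts in each control library it was at least 76.0-fold higher, at least 53.6-fold leaving out transgenic replicate 1 and at least 98.4-fold leaving out transgenic replicate 2. No exonic base of Mal-A2 is shared with another annotated gene on either strand.

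Its neighbors in the Mal-A cluster, 8 maltase genes within 24298 bases of chromosome 2R (8449664 to 8473961), were at other levels. Mal-A1 (FBgn0002570), on the left of Mal-A2, had 71 and 30 reads in controls against 75 and 63 reads in transgenic libraries, and its groups overlapped. Its log2 fold change was 0.44 ± 0.48 (SE, 95% interval −0.61 to 1.5), from −0.0023 leaving out control replicate 2 to 1.13 leaving out control replicate 1. Mal-A3 (FBgn0002571), on the right, had 0 counts in all 4 libraries, and Mal-A4 (FBgn0033294) had 1 count, in transgenic replicate 2. For Mal-A3, 0 counts allow a level of up to 0.170 to 0.184 CPM.

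The other 4 maltase genes of the cluster are not among the 10. Mal-A5 was the most abundant gene of the cluster, at 39.9 and 38.4 CPM in controls against 25.9 and 20.9 CPM in transgenic heads, and it fell (log2 fold change −0.74 ± 0.19, SE, edgeR adjusted p = 0.0121), but it no longer passed when either control replicate was left out (adjusted p = 0.0855 and 0.0613). Mal-A6 had 7 and 10 reads in controls against 19 and 11 reads in transgenic libraries (adjusted p = 0.528). Mal-A8 had 15 and 15 reads in controls against 4 and 6 reads in transgenic libraries (log2 fold change −1.57, 95% interval −3.51 to 0.36, adjusted p = 0.218). Mal-A7 had 2 counts in control replicate 1 and 0 in the other libraries.

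**Figure D3:**
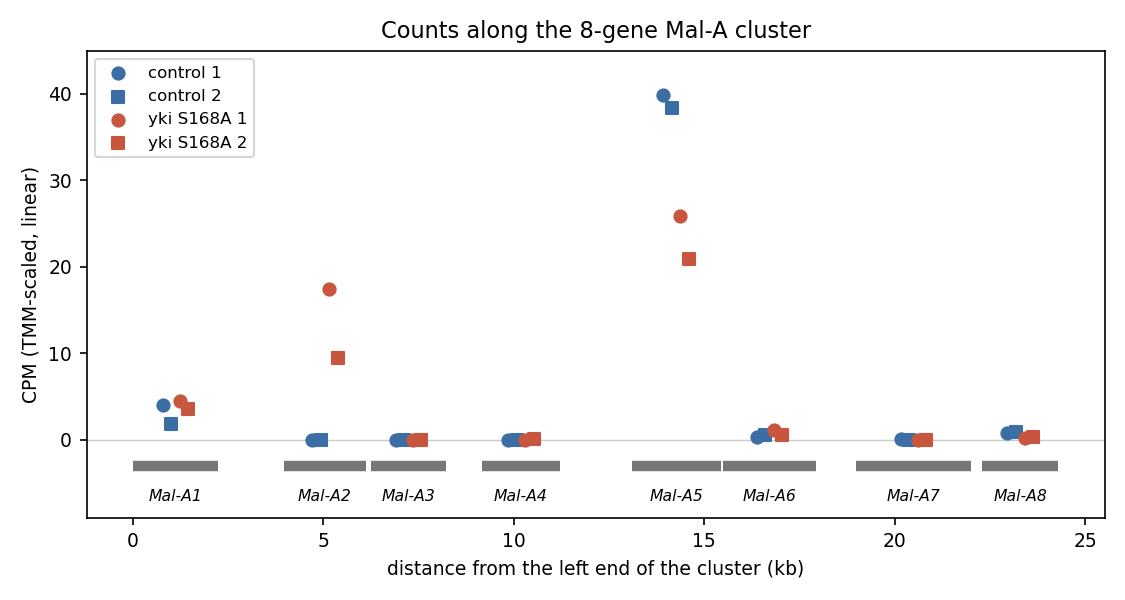
TMM-scaled CPM (linear axis) of the 8 Mal-A genes in the 4 libraries, placed by distance in kb from the left end of the cluster, with gray bars for the extent of each gene. Mal-A2 was at 0 in controls against 17.5 and 9.53 CPM in transgenic heads, while Mal-A5 went from 39.9 and 38.4 to 25.9 and 20.9 CPM and Mal-A3 was at 0 throughout.

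Mal-B1 (FBgn0032381, chromosome 2L, 11847226 to 11849169, plus strand), a maltase gene of another cluster, had 15 and 61 reads in controls against 15 and 29 reads in transgenic libraries. The control libraries differed 4.37-fold, the widest replicate ratio of the 10 genes, and enclosed both transgenic values. Its log2 fold change of −0.81 ± 0.73 (SE) turned to 0.58 leaving out control replicate 2. The adjacent Mal-B2 was at 78.8 and 69.9 CPM in controls against 43.8 and 31.2 CPM in transgenic heads and fell by 0.99 on the log2 scale (SE 0.19, edgeR adjusted p = 0.00239).

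Summed over the 10 maltase genes Mal-A1 to Mal-A8, Mal-B1 and Mal-B2, the level was 124.9 and 115.4 CPM in controls against 94.0 and 67.9 CPM in transgenic heads. Mal-A2 made up 18.6% and 14.0% of this sum in transgenic heads and none of it in controls. Mal-B2 and Mal-A5 held most of the maltase counts in every library.

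Outside the maltase family, CG33080 rose (19.7 and 17.7 CPM in controls against 47.9 and 49.7 CPM in transgenic heads, log2 fold change 1.38 ± 0.18, SE, edgeR adjusted p = 0.00017). The genes for processing glucosidases of the endoplasmic reticulum, which trim glucose from the sugar chains of newly made glycoproteins, were not called: GCS1, listed as CG1597, had a log2 fold change of 0.04 (adjusted p = 0.902), GCS2alpha, listed as CG14476, of 0.09 (0.707) and GCS2beta, listed as CG6453, of 0.39 (0.19). Of the 9 other alpha-glucosidase genes listed, 8 were tested, of which 1 rose and 2 fell, beside the 27.6% of all tested genes called, with a median log2 fold change of 0.06. Leaving out either control replicate, 1 fell, and leaving out transgenic replicate 2, 2 rose.

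**Figure D4:**
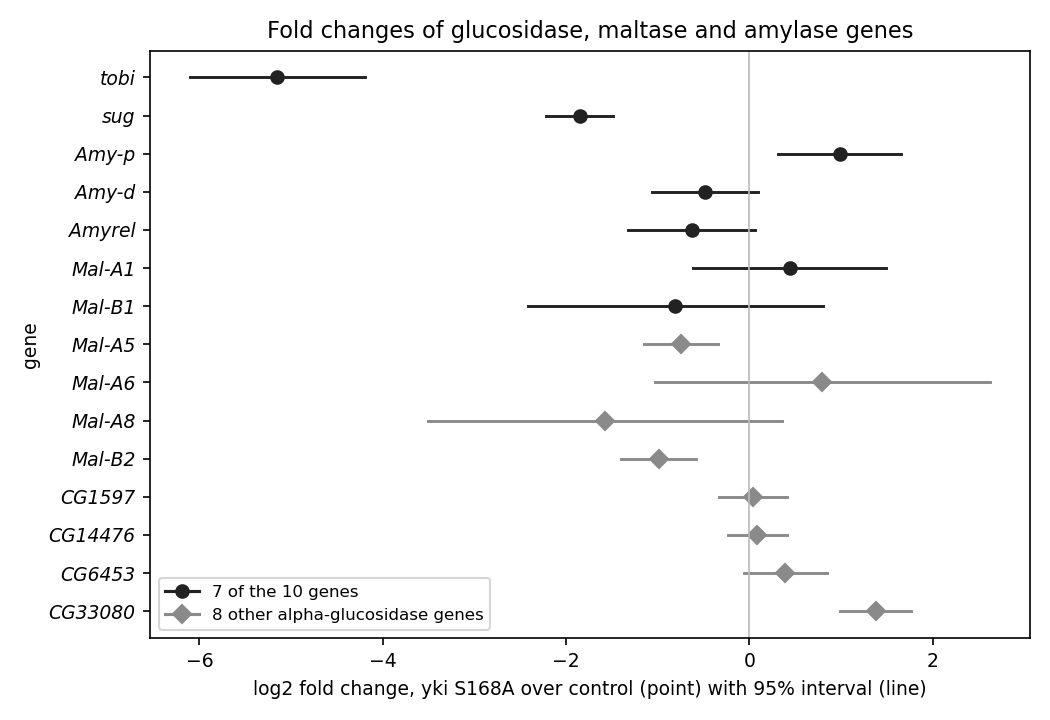
Log2 fold changes of yki S168A over control heads (horizontal axis) with 95% intervals, for 7 of the 10 genes (black circles) and 8 other alpha-glucosidase genes (gray diamonds). The tobi gene stands at −5.15 and sug at −1.85, while Mal-A2, with 0 control counts, has no fold change to plot and Mal-A3 and Mal-A4 had too few counts.

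To compare levels between genes, CPM were divided by the exonic length in kb. In control heads the order was sug (44.0 and 43.6 CPM per kb), Amy-p (14.0 and 11.9), tobi (14.8 and 10.1), Amy-d (9.78 and 8.33), Amyrel (6.08 and 6.89), Mal-A1 (2.22 and 1.01) and Mal-B1 (0.472 and 2.06), with Mal-A2, Mal-A3 and Mal-A4 at 0. Amy-p and tobi overlapped, as did Mal-A1 and Mal-B1, and the other neighbors in this order did not overlap. In transgenic heads the order was Amy-p (35.4 and 16.1 CPM per kb), sug (12.1 and 12.2), Mal-A2 (8.59 and 4.68), Amy-d (7.30 and 5.69), Amyrel (3.41 and 4.95), Mal-A1 (2.49 and 1.96), Mal-B1 (0.502 and 0.907) and tobi (0.173 and 0.512). There the range of Mal-A2 overlapped those of Amy-d and Amyrel, and the ranges of Mal-B1 and tobi overlapped. The range of tobi thus overlapped that of Amy-p in control heads and that of Mal-B1 in transgenic heads.

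Markers of the midgut, where amylases and maltases are mostly made, were nearly absent. Of 42 listed midgut digestive enzyme and midgut marker genes, 18 had 0 counts in all 4 libraries, 27 had at most 3 counts in every library, and 3 were tested. Their summed level was 6.0 and 7.49 CPM in controls against 6.01 and 4.94 CPM in transgenic heads. None of the 3 was called by edgeR's quasi-likelihood test: Jon74E, a chymotrypsin-like protease gene, had an adjusted p of 0.234, Vha100-4 of 0.326 and lab of 0.732. Of the listed midgut genes with over 3 counts in some library, 3 had more reads in transgenic replicate 1, the library with the most Mal-A2 and Amy-p reads, than in the other libraries, and none of them had enough for the test. The midgut gene mex1 had 6 reads in control replicate 1 and 30 in transgenic replicate 1, the alpha-mannosidase gene LManV, listed as CG9466, had 14 in transgenic replicate 1, and the protease gene Jon65Aiii had 2 in control replicate 1 and 10 in transgenic replicate 1, each with 0 in the remaining libraries. In transgenic replicate 2, which also held Mal-A2 reads, mex1, LManV and Jon65Aiii were at 0. Other listed genes with over 3 counts were seen in 1 control library alone, where Mal-A2 had 0 reads. In control replicate 2 these were Jon25Bii (6 reads), Jon65Aiv (6), Jon99Ci (7), Jon99Ciii (5) and GATAe (5). In control replicate 1 they were CG12374 (10 reads) and LysE (5). The gene mag was highest in control replicate 1 (4 reads) and esg in transgenic replicate 2 (20). The part of midgut transcripts in the Mal-A2 and Amy-p counts was not tested.

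Genes of sugar sensing and of glucose repression were lower or not called. Of 18 listed genes, 16 were tested, of which 5 fell and 0 rose (12.5% of all tested genes fell and 15.1% rose), with a median log2 fold change of −0.35. The sugar sensor Mondo, listed as Mio, was at 68.5 and 72.7 CPM in controls against 66.0 and 53.7 CPM in transgenic heads (log2 fold change −0.24, 95% interval −0.59 to 0.11, edgeR adjusted p = 0.309). Its partner bigmax, the fly Mlx, was at 50.1 and 46.2 CPM in controls against 50.6 and 47.0 CPM in transgenic heads (log2 fold change 0.02, 95% interval −0.33 to 0.36, adjusted p = 0.951), with a sign that changed with the scaling. The activin-like ligand gene daw fell from 36.4 and 36.2 to 15.4 and 17.1 CPM (log2 fold change −1.16 ± 0.19, SE, adjusted p = 0.00098). The Krüppel-like repressor gene cbt, a Mondo-Mlx target, fell by 0.73 on the log2 scale (adjusted p = 0.00781, and 0.106 leaving out control replicate 2).

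Among the other genes of that list, the gluconeogenic enzyme gene Pepck fell from 1535 and 1621 to 324 and 436 CPM (log2 fold change −2.05 ± 0.19, SE, edgeR adjusted p = 1.33e-05). The nuclear receptor gene Hr38, which is also induced by neuronal activity, fell by 2.23 on the log2 scale (adjusted p = 6.18e-05). The fifth gene that fell was CCHa2, a nutrient-responsive peptide hormone gene, by 1.04 on the log2 scale (adjusted p = 0.00126). The sweet taste and fructose receptor gene Gr43a was not called (log2 fold change 0.56, adjusted p = 0.117), and Gr64a had 0 counts in all libraries.

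Insulin and adipokinetic hormone genes moved both ways. Of 20 listed genes, 19 were tested, of which 5 rose and 3 fell, beside 15.1% and 12.5% of all tested genes, with a median log2 fold change of 0.26. The number that rose was 2, Akh and ImpL2, leaving out control replicate 1. Akh, the gene for adipokinetic hormone, had 2 and 8 reads in controls against 107 and 195 reads in transgenic libraries, a log2 fold change of 4.86 (95% interval 3.40 to 6.33, edgeR adjusted p = 0.000247) that rests on few control counts. The gene of its receptor, AkhR, which acts in the fat body, fell from 20.4 and 22.2 to 9.29 and 5.79 CPM (log2 fold change −1.51 ± 0.27, SE, adjusted p = 0.00197).

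Of the insulin-like peptide genes, Ilp6, made mainly in fat body, fell by 0.99 on the log2 scale (edgeR adjusted p = 0.000482), and Ilp2, made in the insulin-producing cells of the brain, fell from 68.9 and 75.2 to 46.4 and 36.3 CPM (log2 fold change −0.80, adjusted p = 0.00498). Ilp3 (log2 fold change −0.26, adjusted p = 0.545) and Ilp5 (−0.52, 0.195), from the same brain cells, were not called. The insulin-binding protein gene ImpL2 rose from 167 and 150 to 854 and 1237 CPM (log2 fold change 2.72, adjusted p = 2.45e-06), with 61.9% of its exonic bases shared with CG46460 on the same strand. The receptor gene InR (0.76, adjusted p = 0.0028), the kinase gene Akt, listed as Akt1 (0.71, 0.00515), and the translation inhibitor gene Thor (0.70, 0.00821) rose as well, but these 3 calls were lost leaving out control replicate 1 (adjusted p = 0.0783, 0.0798 and 0.166). InR and Thor are targets of FoxO, the transcription factor that insulin holds back; foxo itself was not called (log2 fold change −0.23, adjusted p = 0.309).

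**Figure D5:**
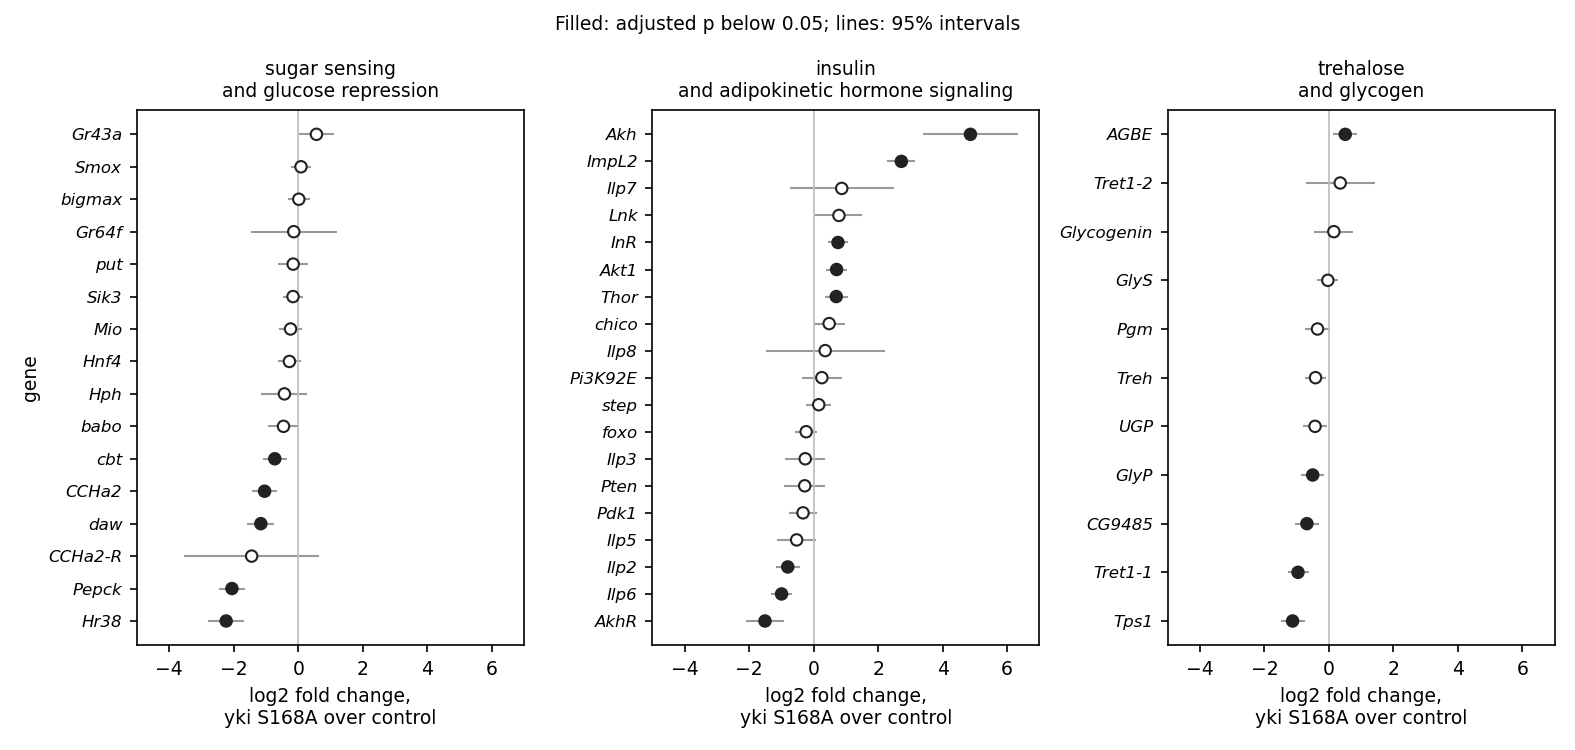
Log2 fold changes of yki S168A over control heads (horizontal axis, lines for 95% intervals) of the tested genes of 3 lists, sorted within each list, with filled points for an adjusted p below 0.05. In the sugar sensing list all filled points lie below 0, in the hormone list Akh (4.86) and ImpL2 (2.72) stand highest and AkhR (−1.51) lowest, and in the trehalose and glycogen list Tps1 (−1.13) is lowest.

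Trehalose, a glucose pair, is the main blood sugar of flies, and glycogen their main sugar store. Of 11 listed genes for these, all tested, 4 fell and 1 rose, beside 12.5% and 15.1% of all tested genes, with a median log2 fold change of −0.42. The trehalose synthase gene Tps1 fell from 322 and 275 to 157 and 117 CPM (log2 fold change −1.13 ± 0.17, SE, edgeR adjusted p = 0.000572). The trehalose transporter gene Tret1-1 fell by 0.96 on the log2 scale (edgeR adjusted p = 0.000686). Of the exonic bases of CG9485, 30.21% lie opposite CG33655. CG9485, listed as the glycogen debranching enzyme gene, fell by 0.68 (adjusted p = 0.0106, and 0.138 leaving out control replicate 1), and the glycogen phosphorylase gene GlyP fell by 0.50 (adjusted p = 0.039). The GlyP call was lost leaving out control replicate 1 (adjusted p = 0.372), control replicate 2 (0.127) or transgenic replicate 1 (0.0766), and with no filter (0.0548). The branching enzyme gene AGBE was called higher (log2 fold change 0.51, adjusted p = 0.0435), but not with RLE scaling (0.0535), upper-quartile scaling (0.15), leaving out control replicate 2 (0.439) or leaving out transgenic replicate 1 (0.11). Treh, the trehalase gene, missed the threshold (133 and 128 CPM in controls against 89.2 and 107.0 CPM in transgenic heads, log2 fold change −0.42, adjusted p = 0.0583), but passed it with RLE scaling (0.0483), upper-quartile scaling (0.0142) and leaving out transgenic replicate 2 (0.0138). The number of genes that fell in this list was 2 leaving out control replicate 1.

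Of 15 genes listed for sugar transport and polyol enzymes, 11 were tested, of which 1 rose and 2 fell, a share near the 27.6% of all tested genes called, with a median log2 fold change of −0.39. The sugar transporter gene sut2 rose from 5 and 12 counts to 49 and 66 counts (log2 fold change 2.72 ± 0.66, SE, edgeR adjusted p = 0.0106, and 0.121 leaving out control replicate 1). The sorbitol dehydrogenase gene Sodh-2 fell by 0.69 on the log2 scale (edgeR adjusted p = 0.0463). Of its exonic bases 60.85% lie opposite CG14695 and asRNA:CR45195, and strand use in counting is not given. CG6484 went from 26 and 31 counts to 2 and 6 counts (log2 fold change −2.81, edgeR adjusted p = 0.0288). Both calls were lost when either control replicate was left out, with adjusted p of 0.182 and 0.12 for Sodh-2 and of 0.138 and 0.216 for CG6484. The CG6484 call was lost without either transgenic replicate too (0.148 and 0.0692), and that of Sodh-2 without transgenic replicate 2 (0.174). The gene CG6767 of this list is now Prps, a nucleotide synthesis gene and no transporter (log2 fold change −0.39, adjusted p = 0.0611).

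Likeness of profile was measured over the 4 libraries as the distance between centered log2(CPM + 0.5) values, among 6679 other tested genes with a mean of at least 10 CPM. Nearest to tobi were the retinal pigment cell gene Pdh (distance 0.635), CG13670 (0.806), CR31084 (0.92), CG4933 (0.955) and CG4842 (1.17), whose log2 fold changes ran from −4.98 to −3.65. Nearest to sug were Ggamma30A, the gamma subunit gene of the visual G protein (0.0488), CR40741 (0.104), the carotenoid uptake receptor gene ninaD (0.13), CG13830 (0.146) and par-6 (0.179), with log2 fold changes from −2.09 to −1.70. CR40741 is annotated as a pseudogene of the 28S ribosomal RNA. With 4 libraries in 2 groups, such a distance reflects mainly the size of the difference between the groups.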

How the data were processed

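Each library came as its own table of raw read counts by gene symbol, as deposited by the authors and per the file headers. Per the labels' protocols, head RNA went into the Lexogen SENSE mRNA kit. The submitters' processing notes name the build dm6. Not given in the sources used here are the aligner, the counter, the annotation, strand use and how multiply matching reads were treated.

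Lines sharing a symbol were summed (37 lines of 17 symbols), and 16334 of 16489 symbols (99.06%) were matched to the Ensembl release 115 annotation, which uses dm6 coordinates, for identifiers, exonic length and overlaps. Genes were filtered with filterByExpr, scaled by TMM and fitted in edgeR 4.0.16 (R 4.3.3) with estimateDisp, glmQLFit (legacy = FALSE) and glmQLFTest, with group as the only term and Benjamini-Hochberg adjustment over 10896 genes. SE was obtained by dividing the size of the log2 fold change by the square root of F. The fit moderates the spread of each gene with that of the other genes (2 residual and 9.15 prior degrees of freedom). SEs, intervals and p-values therefore rest largely on that moderation. The fit was tested on simulated data.

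The members and lists were chosen with earlier results of these data known. Named genes were the 10 members, yki, daw, Mondo, bigmax, cbt, Akh, AkhR and Treh; of each list the 3 with the smallest p and the first called the other way; the 5 nearest profiles to tobi and to sug; and neighbors by position. Named outside this rule, after their values were seen, were the other maltases, GCS1, GCS2alpha and GCS2beta, CCHa2, Gr43a, Gr64a, Ilp2, Ilp3, Ilp5, InR, Akt, Thor, foxo, GlyP, mex1, LManV, Jon65Aiii and CG6767. So were the midgut genes Jon25Bii, Jon65Aiv, Jon99Ci, Jon99Ciii, GATAe, CG12374, LysE, mag and esg. The fat body genes Lsp1alpha, Lsp1gamma, Fbp2, Adh and apolpp were named in the same way. Alternatives were scaling by RLE or upper quartile, removal of the 20 most abundant genes, a filter of none or of a mean of 10 CPM, DESeq2 1.42.0, limma-voom (limma 3.58.1), a replicate block, omission of each library in turn and, chosen after seeing the data, the legacy fit and the summed amylase pair. Promoter and protein sequences were not used here.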

Additional observations from a re-analysis of the deposited data

How the results depend on the processing

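The count of all genes called, 3006, ran from 1634 to 3123 over the fits that left out 1 library, and stayed within 1.5 times in every other setting. Of the 10 genes, which were chosen on this difference, the number past the threshold and higher went from 2 to 1 with upper-quartile scaling, no filter, limma-voom and a mean of at least 10 CPM, which removed Mal-A2 from the test, and ran from 1 to 2 over the fits that left out 1 library; nothing is read from these counts. Genes called over all reference lists, 40, ran from 22 to 49 in the same fits. Of single genes, bigmax changed sign with RLE scaling (log2 −0.0061), upper-quartile scaling (−0.14), a mean of at least 10 CPM (−0.013) and DESeq2 (−0.0057), and ran from −0.041 to 0.075 over the fits with 1 library left out; lab ran from −0.41 to 2.38 there. Upper-quartile scaling moved the median log2 fold change of all genes to −0.15 and the split of calls from 1647 higher and 1359 lower to 1276 and 1924.

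Nothing in the labels says that equal replicate numbers pair libraries, and same-numbered libraries did not deviate together (correlation across genes 0.017). With a replicate block 3626 genes were called. Mal-A3, Mal-A4, Mal-A7 and all but 3 of the listed midgut genes had too few counts for the test, and 2 libraries a group limit every estimate.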

Other observations

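The genes next to the 10 differed in several directions. Cyp4e1, a cytochrome P450 gene whose end overlaps that of Mal-A1 on the opposite strand over 4.49% of the exonic bases of Mal-A1, rose from 94 and 76 reads to 339 and 228 reads (log2 interval 1.02 to 2.44, edgeR adjusted p = 0.00226). The paralog Cyp4e2 beside it fell 1.54-fold (adjusted p = 0.0153, and 0.133 and 0.066 without control replicate 1 and 2). At the other end of the Mal-A cluster, the receptor gene mtt was not called (adjusted p = 0.125).

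On either side of tobi, the furin protease gene Fur1 was at 203 and 229 CPM in controls against 266 and 310 CPM in transgenic heads (adjusted p = 0.0574), and CG11902 was not called (adjusted p = 0.539). Beside sug, the translation factor gene NAT1 had a 1.01-fold difference (adjusted p = 0.964), and CG17019 rose 2.04-fold (adjusted p = 0.00704, and 0.094 without control replicate 1). Between Amy-p and Amy-d, Spn53F had 0 reads in every library. The chitin deacetylase gene Cda9, past Amy-d, had 0 reads in both controls against 10 and 11 reads in transgenic libraries, too few for the test. Beside Amyrel, the receptor tyrosine kinase gene Alk fell 1.37-fold (adjusted p = 0.031, and 0.171 and 0.276 without control replicate 1 and 2).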
